A study of Bos taurus with 10 samples.

Results

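The genes described here are the metallothioneins of bovine liver and the proteins that sense and move zinc around them. They were taken by symbol from a list of 8 names: MT1A, MT2A, MT1E, MT3, MTF1, SLC30A1, SLC39A14 and SLC39A8. The list was selected on measured values, since the difference of MT1A and MT2A between the diets was known when it was drawn up. The differences between diets of these genes are therefore given as a description, without a test. Of the 8 symbols 7 were found, each read by 1 of the 24016 probe sets tested, a probe set being the group of short array probes that reads 1 transcript. MT1E had no probe set under that symbol.

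The material was liver biopsied in week 5 of lactation from Holstein cows, all female, with a mean parity of 2.6. In the control group 20 cows received a rumen-protected control fat, and in the CLA group 20 cows received as much of a fat, likewise protected from the rumen, that supplied conjugated linoleic acid (CLA). Either fat was 27.3% of an extra concentrate given by hand once a day, 630 g as dry matter, beside a mixed ration common to both groups. Feeding began in week 3 prepartum and ended in week 14 postpartum. RNA of 4 cows was combined in each pool, and each group had 5 pools with 1 array per pool, so every value below is that of a pool and p-values measure the spread between pools. The sources used here do not state the cows' ages, which cows entered each pool, or the isomers in the fat.

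Metallothioneins are small, cysteine-rich proteins that bind zinc and copper and hold them in a form the cell can release. Their genes are switched on by MTF1, a transcription factor that senses free zinc, and in liver also by glucocorticoids and by interleukin-6. SLC30A1 carries zinc out of the cell and is itself a target of MTF1, whereas SLC39A14 and SLC39A8 carry zinc, and other divalent metals, into it. Expression values are on a log2 scale, on which a difference of 1 is a doubling. The values carry no detection calls, and brightness depends on the probes as well as on the transcript, so genes are not ranked against each other by level.

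Correlations between arrays were 0.988 to 0.996. The array medians were 5.83 to 5.85 in the control pools and 5.79 to 5.82 in the CLA pools, so every CLA array lay slightly below every control array. Counts of higher and lower genes below were taken without removing this offset. Subtraction of array medians changed such counts over all probe sets, as given in the last section. All 12 hepatocyte markers were measured, with mean values from 10.62 (HPD) to 14.90 (ALB). On 2 arrays, control pool 5 and CLA pool 2, the 5′ probe sets of 2 labelling controls stood far below the rest. The thr 5′ signal was 5.71 in control pool 5 and 5.43 in CLA pool 2, against 8.48 to 8.91 in the other 8 pools, while the thr 3′ signal was 9.99 and 10.02 against 10.12 to 10.49. Below, the differences of the metallothioneins and of SLC39A8, and the correlation of MT1A with MT2A, are given with and without these pools. Ranks and genes alike in pattern are given with all pools only.

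MT1A, the metallothionein with the largest difference among the members, had log2 values of 12.62, 12.10, 12.25, 11.71 and 12.82 in control pools 1 to 5. In CLA pools 1 to 5 the values were 10.93, 9.88, 9.83, 12.57 and 12.33. CLA pools 1, 2 and 3 thus lay below every control pool, and CLA pools 4 and 5 lay inside the range of the control pools. The group means were 12.30 ± 0.44 (SD, n = 5) with the control fat and 11.11 ± 1.30 (SD, n = 5) with CLA, a difference of -1.19 ± 0.50 SE. Without control pool 5 and CLA pool 2 the difference was -0.755 ± 0.512 SE.

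MT2A, the other main metallothionein of liver, followed the same pools. Its control values were 11.69, 11.42, 11.30, 11.08 and 11.67, and its CLA values were 10.61, 10.12, 9.89, 11.51 and 11.21. Again CLA pools 1, 2 and 3 were lower than any control pool and CLA pools 4 and 5 were not. The means were 11.43 ± 0.26 (SD, n = 5) and 10.67 ± 0.69 (SD, n = 5), with a difference of -0.764 ± 0.273 SE, and of -0.567 ± 0.296 SE without control pool 5 and CLA pool 2. In both genes the CLA pools ranged more widely than the control pools, over 2.74 against 1.11 for MT1A and over 1.62 against 0.61 for MT2A.

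MT3, a metallothionein best known from brain, gave a weak signal. Its values were 5.69, 5.66, 5.51, 5.40 and 5.89 in the control pools and 5.35, 5.39, 5.23, 5.57 and 5.46 in the CLA pools. The 3 lowest CLA values were again those of pools 1, 2 and 3, all below the lowest control pool, although the gap was small. The means were 5.63 ± 0.19 (SD, n = 5) and 5.40 ± 0.13 (SD, n = 5), a difference of -0.230 ± 0.098 SE, and -0.163 ± 0.098 SE without control pool 5 and CLA pool 2. Its mean over the 10 pools was above that of 45.8% of probe sets, and how far the MT3 probes also read other metallothioneins was not tested.

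**Figure D1:**
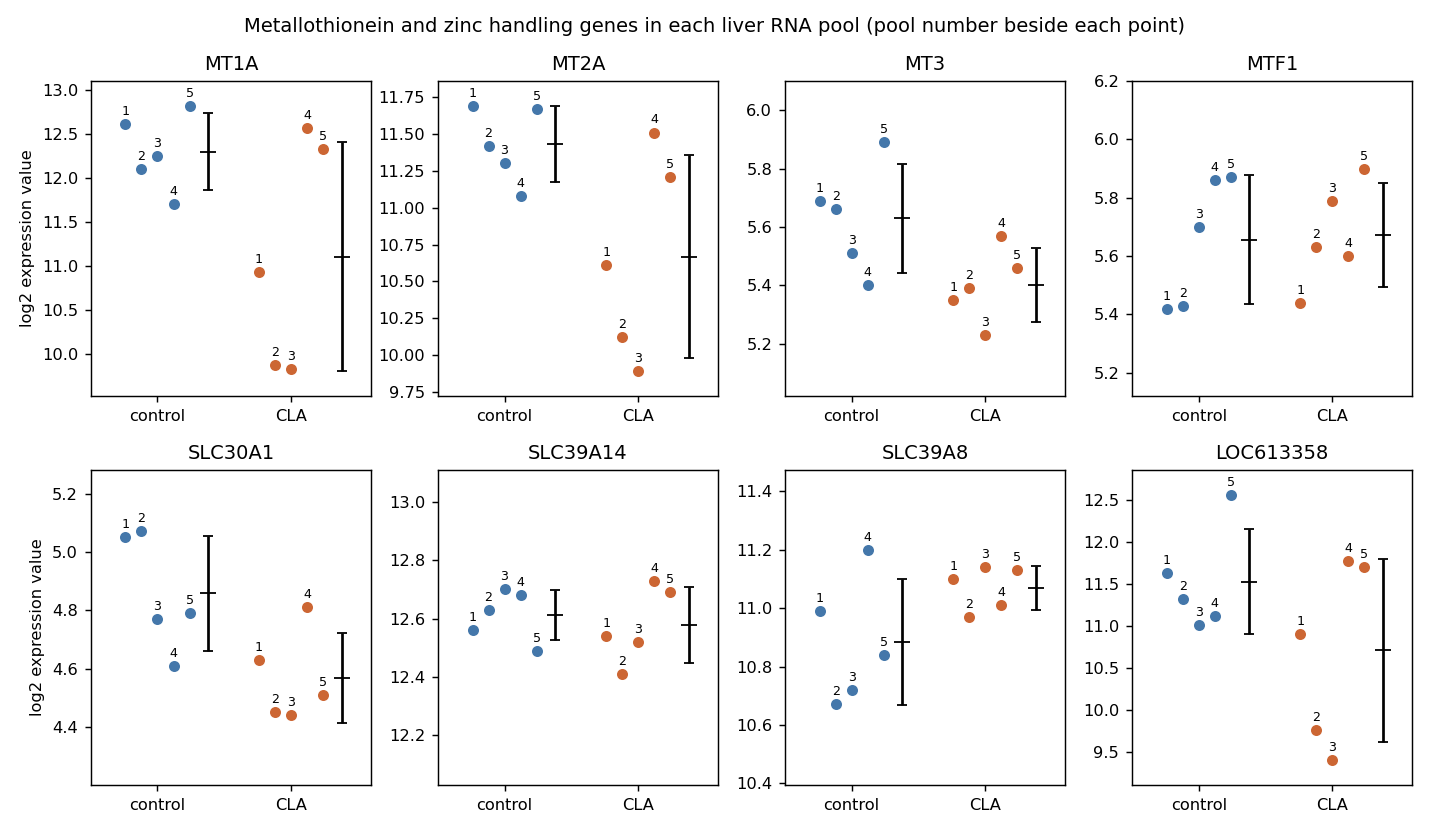
Log2 expression value (vertical axis, scaled separately in each panel and spanning at least 1 unit) of the 7 measured members and of LOC613358 in 5 control pools (blue) and 5 CLA pools (orange), with the pool number above each point and the mean and SD as black bars. For MT1A, MT2A, MT3 and LOC613358, CLA pools 1, 2 and 3 sit below all control pools while pools 4 and 5 sit among them.

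No probe set carried the symbol MT1E, but the RefSeq gene table (assembly ARS-UCD2.0) lists MT1E as a synonym of 3 genes, MT1A, LOC768319 and LOC613358. In that table MT1A, LOC768319, LOC613358, MT2A, MT3 and MT4 stand next to each other in this order. LOC613358 has a probe set on the array, and its values are given because it headed the genes most like MT1A (below) and because of that synonym, so it was chosen after its values were seen. They were 11.63, 11.32, 11.01, 11.12 and 12.56 in the control pools and 10.91, 9.77, 9.41, 11.77 and 11.70 in the CLA pools. CLA pools 1, 2 and 3 were once more below every control pool, and control pool 5 was the highest of all. The means were 11.53 ± 0.62 (SD, n = 5) and 10.71 ± 1.09 (SD, n = 5), with a difference of -0.816 ± 0.457 SE. That difference was -0.490 without CLA pool 3, and -0.322 ± 0.435 SE without control pool 5 and CLA pool 2. Metallothionein genes are close copies, the probe sequences were not used here, and the share of signal that these probe sets take from each other's transcripts was not tested.

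SLC30A1, the zinc exporter, also gave a weak signal and had values of 5.05, 5.07, 4.77, 4.61 and 4.79 in the control pools. In the CLA pools they were 4.63, 4.45, 4.44, 4.81 and 4.51. Here CLA pools 2, 3 and 5 lay below all control pools, and CLA pool 4 was the only CLA pool above the control median of 4.79. The means were 4.86 ± 0.20 (SD, n = 5) and 4.57 ± 0.16 (SD, n = 5), a difference of -0.290 ± 0.106 SE that stayed between -0.352 and -0.237 with any single pool left out. Unlike MT1A, SLC30A1 was low in CLA pool 5.

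MTF1, the zinc-sensing activator of these genes, showed no such pattern. Its values were 5.42, 5.43, 5.70, 5.86 and 5.87 in the control pools and 5.44, 5.63, 5.79, 5.60 and 5.90 in the CLA pools, so the groups overlapped almost completely. The difference was 0.016 ± 0.116 SE, and its sign turned when single pools were left out (-0.043 to 0.074). The transcript level of MTF1 does not report the zinc-dependent activity of its protein, which was not measured.

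The importers were both bright. SLC39A14, which is induced in liver during inflammation, had values of 12.56, 12.63, 12.70, 12.68 and 12.49 in the control pools and 12.54, 12.41, 12.52, 12.73 and 12.69 in the CLA pools. The difference of -0.034 ± 0.079 SE was smaller than the spread between pools and turned positive in some alternatives (0.008 without CLA pool 2). SLC39A8 had values of 10.99, 10.67, 10.72, 11.20 and 10.84 in the control pools and 11.10, 10.97, 11.14, 11.01 and 11.13 in the CLA pools. All CLA pools were above the control median of 10.84 but below control pool 4, and the difference was 0.186 ± 0.099 SE. Without control pool 5 and CLA pool 2 the difference was 0.2 ± 0.115 SE. The lowest alternative was 0.133 ± 0.098 SE, without control pool 2. The highest was 0.290 ± 0.086 SE, when control pool 4 was left out together with CLA pool 2. SLC39A8 was thus the 1 member with a difference in the positive direction beyond its standard error.

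**Figure D2:**
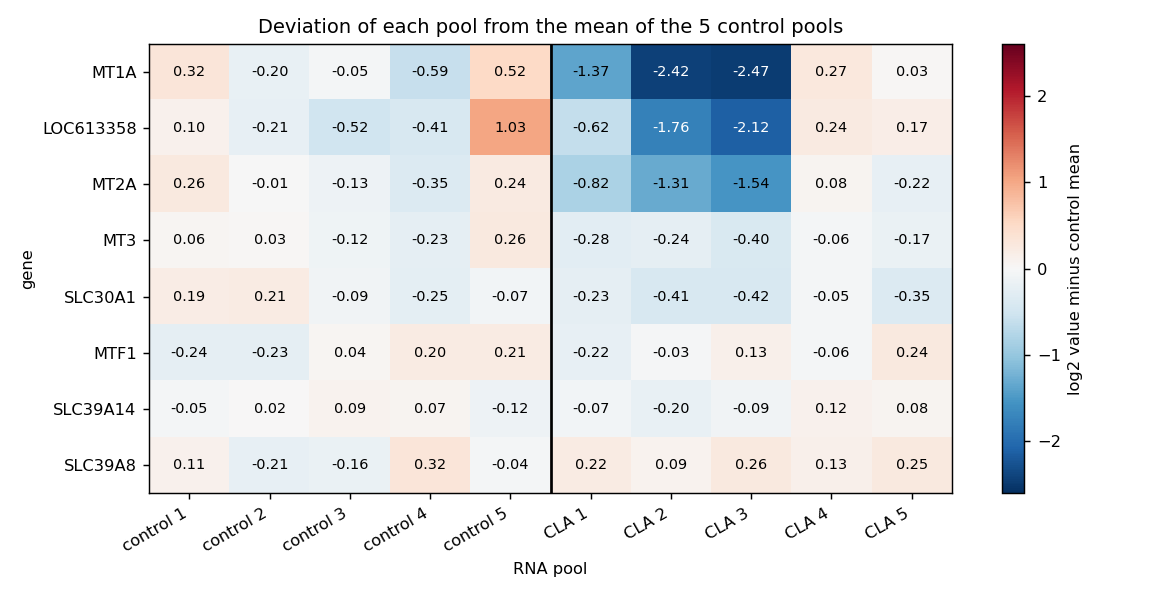
Log2 value of each pool minus the mean of the 5 control pools, for 8 genes (rows) in 10 RNA pools (columns), with red above and blue below that mean and the value printed in each cell. MT1A reaches -1.37, -2.42 and -2.47 in CLA pools 1, 2 and 3 and stands at 0.27 and 0.03 in CLA pools 4 and 5.

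Of the 7 members, 5 had a lower mean with CLA and 2 a higher one. Their median difference was -0.230, against -0.018 over all 24016 probe sets, of which 56.2% were lower. Since the members were picked with this contrast known, nothing is read from these counts. In none of the 7 were all CLA pools below all control pools, a separation found in 0.791% of all probe sets (190). In the fit across the array, limma with Benjamini-Hochberg adjustment, the adjusted p was under 0.05 for 0 probe sets (0%) and the unadjusted p for 2135 (8.89%). By size of the negative difference MT1A ranked 4, LOC613358 ranked 7 and MT2A ranked 9 among all probe sets, while SLC30A1 ranked 410 and MT3 ranked 1043. The choice of members used this contrast and LOC613358 was chosen after its values were seen, so nothing is read from these ranks either.

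MT1A, MT2A and LOC613358 also differed widely between the pools of the CLA group. Over the CLA pools the SD of MT1A, 1.30, ranked 15 among all probe sets, that of LOC613358 (1.09) ranked 23 and that of MT2A (0.691) ranked 168, where the median probe set had 0.136. Over the control pools these genes ranked 782, 252 and 3726, with SDs of 0.437, 0.623 and 0.257 against a median of 0.152. The same low CLA pools shape the CLA SDs and the differences known when the genes were chosen. Nothing is therefore read from these ranks. Without control pool 5 the control SDs were 0.377, 0.272 and 0.254, so that of LOC613358 rested on this pool, and without CLA pool 2 the CLA SDs were 1.28, 1.1 and 0.716. The highest and lowest CLA pools were 6.68-fold apart for MT1A and 3.07-fold apart for MT2A. MTF1, SLC30A1, MT3, SLC39A14 and SLC39A8 had SDs of 0.0758 to 0.178 over the CLA pools, on either side of that median of 0.136. Because a pool averages 4 cows, the spread between single cows cannot be read from these values.

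**Figure D3:**
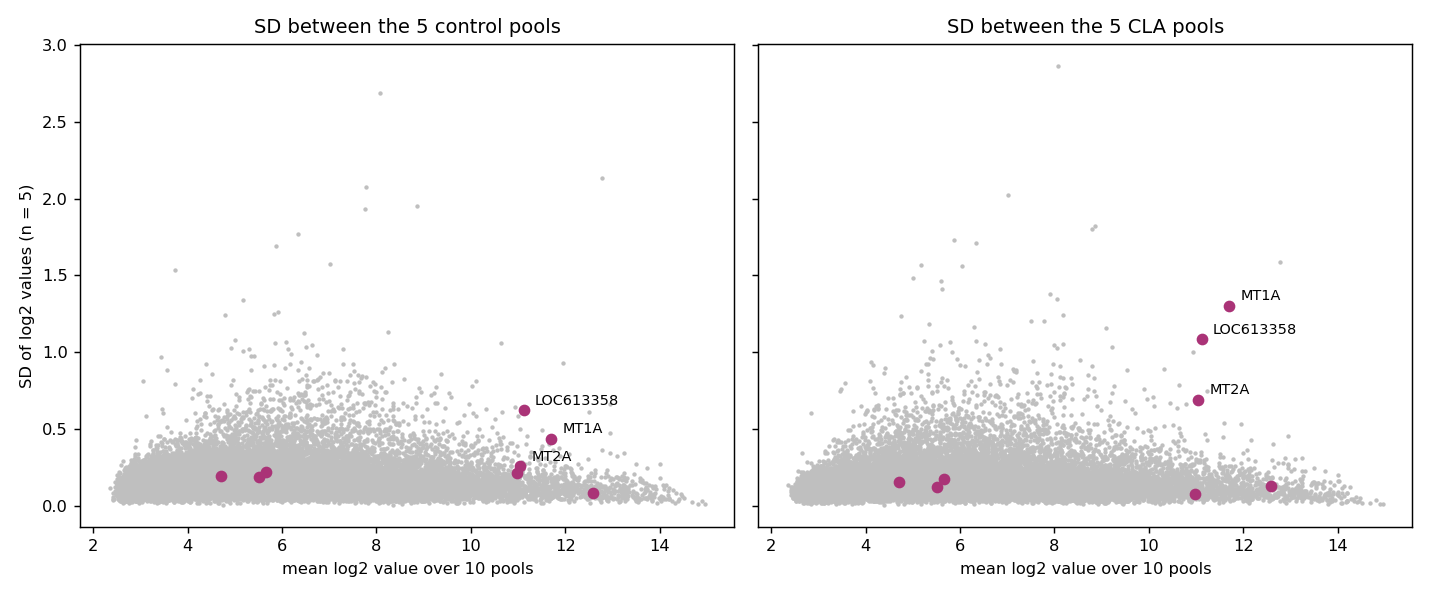
SD of the log2 values between the 5 control pools (left) and the 5 CLA pools (right) against the mean log2 value over the 10 pools, for all 24016 probe sets (grey) and for the 7 members and LOC613358 (purple, 3 of them labelled). In the CLA pools MT1A (1.30) ranked 15 and LOC613358 (1.09) ranked 23 by SD among all probe sets.

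How the members vary within a diet was not used to choose them, so MT1A was compared with the other 6 over the 10 pools after each group's mean was removed. MT1A and MT2A moved together almost exactly, with Pearson's r of 0.984 (exact permutation within groups, two-sided p = 0.000417, Benjamini-Hochberg adjusted 0.0025 over 6 pairs). Spearman's rho was 0.939 (exact permutation p = 0.00542, adjusted 0.0215). Without CLA pools 4 and 5, the 2 pools farthest from the median of the group-centred MT1A values, r was 0.951 (exact permutation p = 0.00833). Without control pool 5 and CLA pool 2 it was 0.986 (exact permutation, adjusted p = 0.0208). The share of signal that metallothionein probe sets take from each other's transcripts was not tested. Correlations between them therefore cannot tell shared signal from separate transcripts that vary together.

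MT3 also followed MT1A, with r of 0.685 (exact permutation p = 0.00361, adjusted 0.0108) and rho of 0.784 (exact permutation p = 0.00715, adjusted 0.0215). The call for MT3 ended without CLA pool 4 (r = 0.596, exact permutation, adjusted p = 0.0573), and without CLA pools 4 and 5 together r was 0.665 (exact permutation p = 0.0611). SLC30A1 had r of 0.518 (exact permutation p = 0.0954, adjusted 0.191) and rho of 0.648 (exact permutation p = 0.0608, adjusted 0.122), which missed the threshold. The importer SLC39A14 had r of 0.599 (exact permutation p = 0.16, adjusted 0.241) and rho of 0.552 (exact permutation p = 0.2, adjusted 0.299). That relation rested on CLA pools 4 and 5, since r was -0.311 without them (exact permutation p = 0.457). MTF1 had r of 0.0472 (exact permutation p = 0.896, adjusted 0.896) and rho of 0.0667 (exact permutation p = 0.873, adjusted 0.873), and r was -0.38 without CLA pools 4 and 5. SLC39A8 had r of -0.0882 (exact permutation p = 0.698, adjusted 0.838) and rho of -0.0788 (exact permutation p = 0.803, adjusted 0.873), with r at -0.173 without these pools. Much of the range of MT1A comes from the CLA group, in which pools 1, 2 and 3 were low and pools 4 and 5 high.

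**Figure D4:**
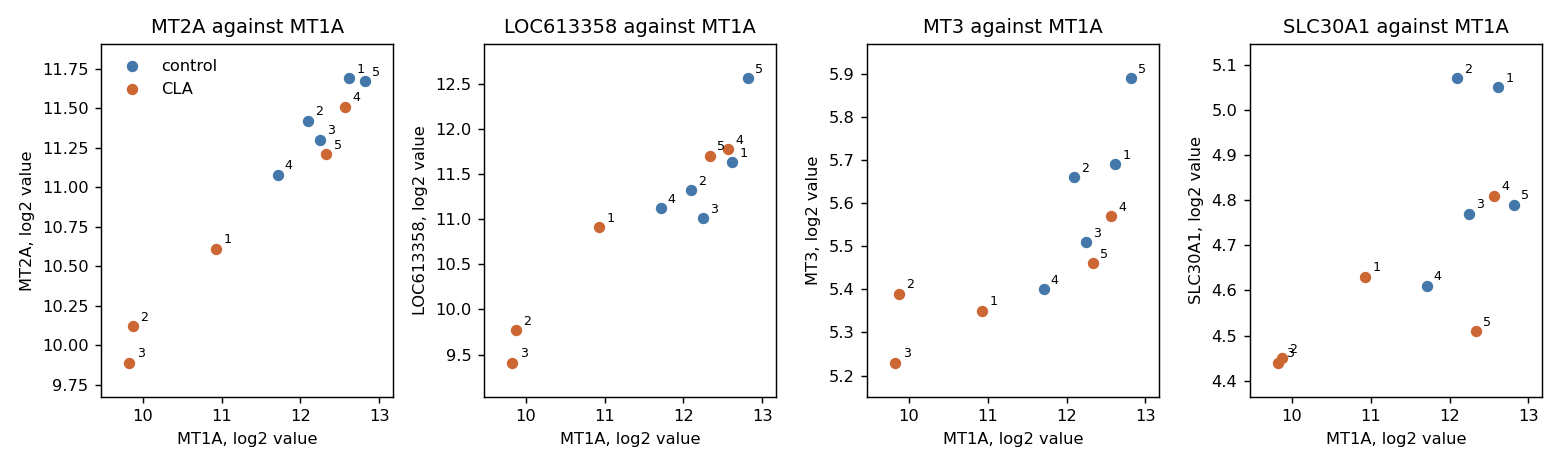
Log2 values of MT2A, LOC613358, MT3 and SLC30A1 (vertical axes) against MT1A (horizontal axis) in 5 control pools (blue) and 5 CLA pools (orange), with pool numbers. MT2A lies close to a single line through both groups. LOC613358 scatters more widely, and so does SLC30A1, which is low at 4.51 in CLA pool 5.

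The genes with the pattern most like MT1A were sought among 13285 other probe sets with 1 symbol, by Pearson's r over the same 10 pools with group means removed. This is a description, since all genes share the same arrays. LOC613358 came first (r = 0.932), followed by RNF168 (0.930), a ubiquitin ligase of the DNA damage response, RASL11B (0.920), a small GTPase-like protein, PPRC1 (0.905), a transcriptional coactivator, and ALAS2 (0.897), the erythroid enzyme of heme synthesis. For MT2A the order was RASL11B (0.939), LOC613358 (0.929), RNF168 (0.915), SMIM24 (0.896) and SMTNL2 (0.896). An r of 0.9 or more was reached by 4 probe sets for MT1A and by 3 for MT2A, and an r of -0.9 or less by 5 and 2. Apart from LOC613358 these genes were dim, with mean values of 3.467 to 4.311, and their SDs within groups were 0.138 to 0.32 against 0.885 for LOC613358. LOC613358 was thus the 1 bright gene on both lists, and it is 1 of the 3 genes for which RefSeq gives MT1E as a synonym.

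The remaining zinc transporters differed little between the diets. Of 33 listed symbols, including further metallothionein names, 15 were measured, 8 with a higher and 7 with a lower mean in the CLA pools. Their median difference was 0.016, against -0.010 over the 9155 genes with 1 symbol. None of the 15 passed limma's test with Benjamini-Hochberg adjustment over all probe sets, and 0 had an unadjusted p under 0.05, against 8.49% of all genes. SLC30A2, an exporter into vesicles, differed by -0.198 ± 0.101 SE, SLC39A11 by 0.170 ± 0.093 SE and SLC39A7, which releases zinc from the endoplasmic reticulum, by -0.120 ± 0.068 SE (limma adjusted p of 0.598, 0.622 and 0.642). The mean deviation of the 15 genes from the control mean lay between -0.042 and 0.041 in all 10 pools. Fewer cells of a type and less RNA per cell cannot be told apart in any of these bulk values.

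**Figure D5:**
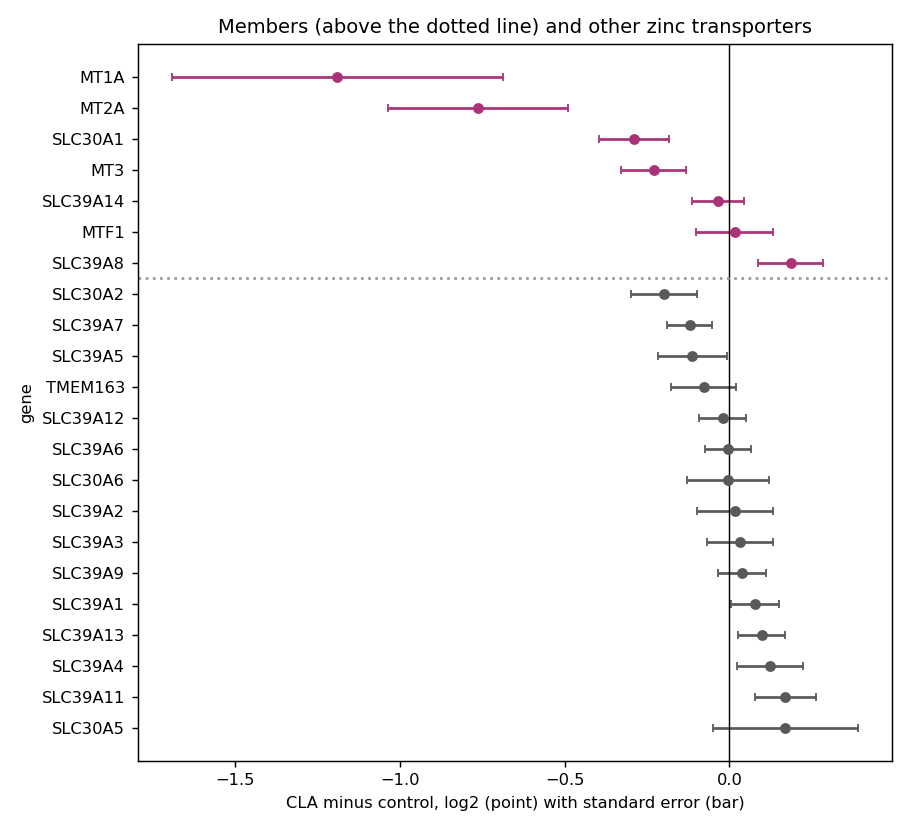
Difference of CLA minus control on the log2 scale (point) with its standard error (bar) for the 7 members (purple, above the dotted line) and for the 15 other measured zinc transporters (grey). MT1A lies at -1.19 and MT2A at -0.764, while the other transporters lie between -0.198 and 0.170.

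Genes that share regulators or metals with the metallothioneins were counted in the same fit, in which 0 of any list passed limma's adjusted test. Their counts at an unadjusted p under 0.05 stand beside the 8.49% of all genes. In copper handling 6 of 11 measured genes were higher and 4 lower (median 0.016), with 2 at an unadjusted p under 0.05. Of these, CCS, which delivers copper to superoxide dismutase, differed by -0.300 ± 0.107 SE (limma adjusted p = 0.461), and XIAP differed by 0.188 ± 0.064 SE (limma adjusted p = 0.442) at a very dim probe set, with -0.09 at its other one. Of 9 measured genes listed as MTF1 targets or heavy metal response genes 4 were higher and 5 lower (median -0.022), and 0 had an unadjusted p under 0.05. These counts include PIGF, an enzyme of glycolipid anchor synthesis that is not a known MTF1 target. PIGF differed by 0.196 ± 0.114 SE and HMOX1, which breaks down heme, by -0.120 ± 0.118 SE (limma adjusted p of 0.649 and 0.809). In the list of NRF2 and oxidative stress 12 of 21 genes were higher and 9 lower (median 0.058), with 2 at an unadjusted p under 0.05. They were the antioxidant enzymes GPX2, at 0.372 ± 0.104 SE, and PRDX6, at 0.232 ± 0.078 SE (limma adjusted p of 0.376 and 0.429). The 3 other PRDX6 probe sets differed by 0.05, -0.09 and 0.26.

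Of 13 measured genes of the glucocorticoid response 10 were higher and 3 lower (median 0.060), and 1 had an unadjusted p under 0.05. This was the receptor NR3C1, at 8.09 ± 0.26 (SD, n = 5) in the control and 8.71 ± 0.15 (SD, n = 5) in the CLA pools, a difference of 0.618 ± 0.123 SE (limma adjusted p = 0.272), with 0.23 at its second probe set. CDKN1A differed by 0.254 ± 0.185 SE (limma adjusted p = 0.731). The mean deviation of the list was 0.158, 0.287 and 0.108 in CLA pools 1, 2 and 3, where the metallothioneins were low, and -0.062 and 0.002 in CLA pools 4 and 5. It was 0.131 and 0.162 in control pools 1 and 3, where MT1A was 12.62 and 12.25, and -0.156 to -0.067 in the other control pools. Its part in the metallothionein values was not tested.

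The interleukin-6 and acute phase list had 10 of 19 genes higher and 9 lower (median 0.008), with 1 at an unadjusted p under 0.05. APCS, serum amyloid P, differed by -0.310 ± 0.126 SE and FGG, a fibrinogen chain, by 0.098 ± 0.064 SE (limma adjusted p of 0.513 and 0.700). The mean deviation of this list was 0.283, -0.066 and -0.322 in CLA pools 1, 2 and 3 and 0.201 and -0.140 in CLA pools 4 and 5. In the control pools it ran from -0.421 in pool 4 to 0.189 in pool 3, and its part in the metallothionein values was not tested.

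Markers of other cells were set beside these values, and 53.2% of all genes were lower in the CLA pools. The hepatocyte list lay between -0.057 and 0.072 in all 10 pools. Of T and NK lymphocyte markers 11 of 11 were lower in the CLA pools (median -0.162), and their mean deviation was -0.202 to 0.247 in the control and -0.344 to -0.079 in the CLA pools. Of Kupffer cell and macrophage markers 7 of 8 were lower (median -0.065, -0.221 to 0.224 against -0.217 to 0.092), and of erythroid markers 6 of 6 (median -0.070, -0.125 to 0.160 against -0.196 to 0.049). Most erythroid probe sets were dim, with means from 2.716 (SLC4A1) to 6.011 (HBB), where array medians were 5.79 to 5.85. The lymphocyte deviation was -0.344, -0.109 and -0.179 in CLA pools 1, 2 and 3, where the metallothioneins were low. It was -0.079 and -0.274 in CLA pools 4 and 5, where the metallothioneins were in the control range. The endothelial, stellate cell, cholangiocyte and skeletal muscle medians were -0.048, 0.086, 0.094 and -0.038, with 5 of 9, 2 of 9, 2 of 5 and 6 of 8 lower. An unadjusted p under 0.05 was found for 5 markers, named after their values were seen, against 8.49% of all genes. They were 1 of 11 lymphocyte markers, 1 of 6 erythroid, 1 of 9 endothelial and 2 of 9 of stellate cells and fibroblasts. The hepatocyte, Kupffer cell, cholangiocyte and skeletal muscle lists had 0 of 12, 8, 5 and 8. ZAP70 of lymphocytes differed by -0.436 ± 0.109 SE and HBA of erythroid cells by -0.240 ± 0.076 SE at a dim probe set (mean 3.912). EMCN of endothelium differed by 0.246 ± 0.088 SE (-0.01 at its other probe set). LRAT and LUM of stellate cells and fibroblasts differed by 0.216 ± 0.087 SE and 0.342 ± 0.157 SE. In this order the limma adjusted p was 0.332, 0.418, 0.461, 0.511 and 0.562. No marker can be said to stand at 0 on this scale, and the part of other cells in the metallothionein values was not tested.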

How the data were processed

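The authors deposited 1 table of log2 expression values with 2 decimals, for 24128 probe sets on 10 arrays. The submitters' processing notes name Affymetrix Expression Console 1.1 and RMA; settings are not given in the sources used here. Values were used as deposited. The 112 manufacturer control probe sets were left out of the fit, and the platform annotation gave 13292 of the other 24016 a single symbol. RefSeq served for names and gene order only.

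Differences are CLA minus control, from lmFit and eBayes of limma 3.58.1 (R 4.3.3) on all 10 arrays, without covariates. P-values were adjusted over all probe sets by Benjamini-Hochberg at 0.05. A gene was read by its brightest probe set. Correlations used group-centred values and all 14400 orders within groups (Python 3.11.15). Both procedures were tested on simulated data.

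Named genes were all members, the 3 (zinc) or 2 (other lists) genes of smallest p, and the 5 most like MT1A and MT2A. Members and lists were chosen with earlier results of these data known. Pool numbers were not treated as pairs: same-numbered pools deviated with correlations of -0.0855 to 0.0925. The alternatives were single pools left out, 2 pairs of pools left out, a replicate block, 3 normalizations, a dim filter, other eBayes settings, array weights, gene means and another threshold. Precision is limited by the number of arrays.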

Additional observations from a re-analysis of the deposited data

Results flagged for a closer look

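Control probe sets of the manufacturer, which the comparisons do not use, set 2 arrays apart. Within a group of 5 pools, a value was singled out when its gap to the next exceeded 0.71 of the group's range. The 5′ probe set of the labelling control dap stood at 7.13 in control pool 5 and 7.37 in CLA pool 2, against 10.52 to 10.87 in the other 8 pools, and that of thr at 5.71 and 5.43, against 8.48 to 8.91. The 5′ probe set for bovine EF1A stood at 8.94 in CLA pool 2, and at 10.13 in control pool 5, which did not pass this limit. Their 3′ probe sets differed far less (thr 9.99 and 10.02, EF1A 12.22 and 12.41). These 3 control probe sets were looked at because they stood out, and 5 of their 6 groups of 5 pools held such a value, on the same 2 arrays. Of 42 groups of the members, LOC613358 and the named list genes 0 did, where chance gives about 1 in 20. The rule finds only a lone value, and in MT1A CLA pools 2 and 3 lay side by side (gap 0.018 of the range). That count of 0 therefore cannot tell whether these arrays affect the metallothionein values. Control pool 5 had the highest MT1A value of the 10 pools, 12.82, and CLA pool 2 the second lowest, 9.88. The 3′ minus 5′ difference of GAPDH was 2.71 in control pool 5, the highest control value, and 2.17 in CLA pool 2, the lowest CLA value. The control pools ran from 1.71 to 2.71 and the CLA pools from 2.17 to 2.65.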

How the results depend on the processing

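The differences of the 7 members and of LOC613358 moved by less than 1 SD between pools in all 20 alternatives, those without control pool 5 and CLA pool 2 (chosen after seeing the data) included. MT1A lay between -1.56 (without CLA pool 4) and -0.755, MT2A between -0.975 and -0.567, MT3 between -0.287 and -0.163, SLC30A1 between -0.352 and -0.237, SLC39A8 between 0.133 and 0.290 and LOC613358 between -1.08 and -0.322. The sign of MTF1 (-0.043 to 0.080) and SLC39A14 (-0.076 to 0.025) was not stable. With the replicate block the difference of MT1A was -1.19 ± 0.440 SE, and r of MT1A with MT2A was 0.997; with MT3 it was 0.657 and no longer passed (adjusted p = 0.227), and the cause was not tested. Under the block r with SLC30A1, MTF1 and SLC39A8 was 0.882, -0.899 and -0.818, none past the threshold. R with MT2A was 0.977 to 0.987 with single pools left out. Genes of the lists past the adjusted test remained at 0 in all 21 alternatives; over all probe sets the count was 1 without CLA pool 2 and control pool 4. At unadjusted p under 0.05, 962 probe sets were higher and 1173 lower, against 1474 and 627 after subtraction of array medians, 1196 and 779 after cyclic loess, 1100 and 817 after quantile normalization, and 645 lower without the dimmest 30%. Probe sets with all CLA pools lowest numbered 190, and 99 after subtraction of array medians. The values hold no background signal, so what it limits could not be given.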
